A study of Mus musculus with 8 samples.

Results

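DEAD and DEAH box RNA helicases are a family of enzymes that use ATP to unwind or remodel RNA, and the amounts of their mRNAs are compared here between B16F0 mouse melanoma cells and the exosomes that these cells released. The members were all genes whose symbol begins with Ddx or Dhx and a number and whose array signal belonged to that gene alone, with Ddx58, Dhx58 and Ddx3x left out by the rule. This gave 42 genes, 28 named Ddx and 14 named Dhx, of 14860 genes measured. A further 2 signals, those of Ddx47 and Dhx32, were shared with other genes and were not used. B16F0 is a pigmented melanoma line, and exosomes are small vesicles through which cells shed RNA and protein. There were 4 cell samples and 4 exosome samples, and the total RNA of each was hybridised to an Affymetrix exon array of its own. Both groups were the same line, with no other treatment named, in medium without serum, the cells harvested after 24 h and the exosomes taken from medium that cells had conditioned for 24 h. The sources used here do not give the isolation method of the vesicles, and no label ties the samples to separate cultures, so p-values measure only the spread between the samples at hand, which may be technical.

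The family is named after the letters of an amino acid motif that binds ATP, Asp-Glu-Ala-Asp in DEAD proteins and Asp-Glu-Ala-His in DEAH proteins. DEAD box proteins open short duplexes locally or clamp onto RNA, while DEAH box proteins move along a strand and pull it out of a complex. Members act at nearly every step of RNA life, from ribosome assembly in the nucleolus and splicing in the nucleus to export, translation and decay in the cytoplasm. Most are housekeeping proteins of growing cells, and a few, such as Ddx4 and Ddx25, are known mainly from germ cells.

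The same mass of cDNA was labelled for each sample, so a signal is a share of the RNA in a sample, and fewer copies of one mRNA cannot be told apart from more of other RNA. Signals are log2 values as deposited. Genes of chemosensory receptors stood in for unexpressed genes, and a gene was counted above background in a group if its signal passed their 95th percentile on all 4 arrays. That limit was 5.74 ± 0.03 on cell arrays and 6.49 ± 0.06 on exosome arrays (mean ± SD, n = 4 each), and the upper quartile of all signals over the median background gene was 4.91 ± 0.08 in cells and 2.92 ± 0.09 in exosomes. The arrays of the groups thus had different distributions, and each direction below was also computed under 4 other scalings. Of 9 measured pigment cell markers, 9 passed this limit in cells and 9 in exosomes. Among markers of other cell types, 0 of 4 leukocyte, 0 of 3 endothelial and 0 of 1 erythroid genes were above background in either group. For fibroblast markers the numbers were 2 of 6 in both groups, namely the collagens Col1a1 and Col1a2, and for keratinocyte markers 1 of 3 in cells and 0 in exosomes. Precision is limited by the small number of arrays.

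Most helicase mRNAs were less abundant in exosomes than in cells. Of 42 members, 38 fell, 1 rose and 3 did not pass the test (limma, two-sided, Benjamini-Hochberg adjusted p below 0.05 over all 23332 transcript clusters). Among all 14860 genes 66.6% were called by the same rule, 52.1% lower and 14.6% higher, and among all 23332 transcript clusters 59.3% were, 42.9% lower and 16.4% higher. Because most members were bright in cells, the closer comparison is with the 9164 genes that passed the background limit on every cell array, of which 80.0% fell. The median log2 change of the members was -1.71, with a measured range from -3.64 to 1.17, beside -0.39 for all genes and -1.30 for genes above background in cells. With members that were not above background in exosomes set at their bound, the median was -1.64, and it was -1.06 for genes above background in cells. As measured, the difference was at least 2-fold for 34 members that fell and 1 that rose, beside 37.8% and 2.58% of all genes and 31.1% and 5.43% of all clusters. Of the 9164 genes above background in cells, 5526 fell and 197 rose at least 2-fold. Cell and exosome values were fully separated for 39 members, beside 65.7% of all genes and 56.4% of all clusters. Among the 9164 genes above background in cells they were separated for 8008, so separation was common at such levels.

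The count depended on how the arrays were scaled. Across all transcript clusters the deposited values had a median change of -0.20, quantile normalization moved it to 0.05, cyclic loess to 0.03, centring on background genes to -0.79 and centring on array medians to 0.08. The members' median minus the median of all clusters was -1.51 as deposited. Centring moves all signals of an array alike, so it cannot change this difference. It was -0.68 after quantile normalization and -0.52 after cyclic loess. Many clusters were within background, and with dim signals filtered out the difference was -0.54 in the deposited scaling. Members called higher and lower were 5 and 31 with quantile normalization, 6 and 28 with cyclic loess, 1 and 41 with background gene centring, and 2 and 38 with array median centring. Under all 5 scalings 28 members were called lower and 1, Ddx19b, higher. The 5 members that were called lower as deposited and had positive changes after quantile normalization and cyclic loess were Ddx23, Ddx51, Dhx16, Dhx35 and Dhx37. Of these, Ddx51, Dhx35 and Dhx37 were called higher under both, and Ddx23 after cyclic loess. Ddx50, not called as deposited and with a change near 0, was also called higher under both. With background gene centring Ddx50 was called lower (-0.62, limma adjusted p = 0.0429). Ddx4 was the second member called higher when arrays were centred on their medians (0.51). Falls of the following members were called under every scaling, with measured changes from -3.79 to -1.75 for Ddx5 and from -3.21 to -1.17 for Dhx15. Nucleolar Ddx21, by contrast, ranged from -2.26 to -0.21, called lower throughout.

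**Figure D1:**
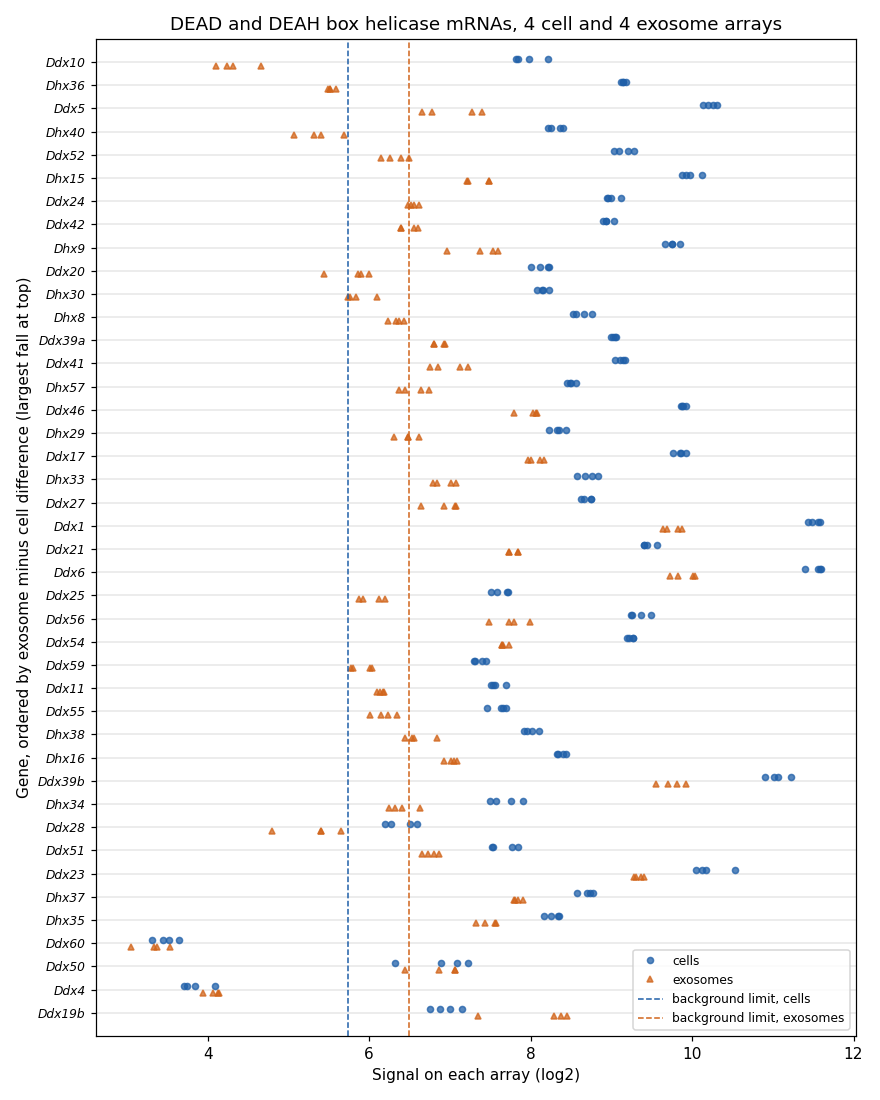
Signal of each helicase gene on each array (x axis, log2; circles, 4 cell arrays; triangles, 4 exosome arrays), ordered by the exosome minus cell difference, with dashed lines at the mean background limit of each group (5.74 in cells and 6.49 in exosomes). In the deposited values the groups are apart for 39 of 42 genes and overlap for Ddx4, Ddx50 and Ddx60, and the exosome values lie to the right of the cell values for Ddx19b.

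In cells 40 members were above background and in exosomes 21, and all 21 were also above background in cells. The 2 members not above background on any array were Ddx4, the germ cell helicase also called Vasa, and Ddx60, a helicase of antiviral responses. Of the 38 members that fell, 20 stayed above background on all exosome arrays, 7 on some and 11 on none. For 10 of these 11 the fall is given as a bound, the cell mean against the exosome background limit, and the bounds ran from at least 1.83-fold to at least 6.31-fold. These bounds, here and below, hold for the deposited values only, and other scalings could give smaller falls. After cyclic loess the measured log2 change of Dhx36 was -2.31, beside a deposited bound of -2.66, and that of Ddx11 was -0.37, beside -1.08. For Ddx28 the cell mean lay below the exosome limit, so no fold is given. Of the 34 members with a measured fall of at least 2-fold, 16 were above background on all exosome arrays, 7 on some, and 9 had a bound of at least 2-fold, while for the other 2, Ddx28 and Ddx59, a fall of that size is not shown. The share of genes above background in cells that also were so in exosomes was 56.5% over all genes.

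Arrays of a group gave similar signals for the helicases. The median SD over members was 0.09 in cells and 0.14 in exosomes, and the SD was larger in exosomes for 32 of 42 members. Among the 38 members that fell, cell replicate 2 had the lowest cell value for 25, exosome replicate 1 the lowest exosome value for 17, and exosome replicate 4 the highest exosome value for 22. The gap between the lowest cell value and the highest exosome value of these members ran from 0.56 to 3.53. Leaving out each array in turn left 38 members called lower in every case, with a median change between -1.74 and -1.66.

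All 12 measured helicases of the spliceosome, the machine that removes introns, fell, with a median log2 change of -1.84. Ddx5, also called p68, works in splicing, transcription and microRNA processing. Its signal was 10.20, 10.13, 10.31 and 10.26 on the cell arrays and 6.78, 7.28, 6.65 and 7.40 on the exosome arrays. Every exosome value lay well below every cell value, and exosome replicates 1 and 3 were the lower ones. Ddx5 fell 9.18-fold (log2 change -3.20 with an SE of 0.17, limma adjusted p = 4.5e-07, n = 4 arrays in each group). Its close relative Ddx17, or p72, read 9.92, 9.86, 9.76 and 9.85 in cells and 7.97, 8.01, 8.17 and 8.12 in exosomes. The groups were again apart with little spread inside each, and Ddx17 fell 3.44-fold (-1.78 ± 0.08, adjusted p = 1.3e-07).

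Dhx15 takes apart the spliceosome after the finished mRNA has been released. It read 9.92, 9.88, 9.97 and 10.12 in cells and 7.23, 7.21, 7.49 and 7.49 in exosomes, a fall of 6.12-fold (log2 change -2.61 ± 0.10 SE, limma adjusted p = 8.26e-08). Ddx42, which associates with a subcomplex that recognises the branch site, read 8.94, 8.90, 8.93 and 9.03 in cells and 6.40, 6.39, 6.61 and 6.55 in exosomes. Only 2 of its 4 exosome values exceeded the background limit, and it fell 5.50-fold (-2.46 ± 0.08). Ddx41, a spliceosome helicase that has also been described as a sensor of DNA, read 9.17, 9.11, 9.15 and 9.04 in cells and 7.13, 6.85, 7.22 and 6.75 in exosomes, a fall of 4.38-fold (-2.13 ± 0.11). In each of these 3 genes the groups were clearly apart.

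Ddx39b, also called UAP56, helps to assemble the spliceosome and loads export factors onto the spliced mRNA. It read 11.23, 10.90, 11.07 and 11.01 in cells and 9.55, 9.70, 9.93 and 9.81 in exosomes. Both groups were far above background and did not overlap, and Ddx39b fell 2.47-fold (log2 change -1.31 ± 0.11 SE, limma adjusted p = 7.27e-06). After cyclic loess its change was -0.13 (adjusted p = 0.214). Of the remaining 6 splicing helicases, Dhx8, which releases the finished mRNA, was not above background in exosomes and was at least 4.40-fold lower as deposited. After cyclic loess the measured change of Dhx8 was -0.92, a smaller fall than this bound. Ddx46, which acts when the branch site is first bound, fell 3.71-fold. Dhx38 and Dhx16, which drive the catalytic steps, fell 2.64-fold and 2.56-fold as deposited, with 3 and 4 exosome arrays above background, but their changes were -0.15 and 0.025 after quantile normalization. Ddx23 and Dhx35 fell least, 1.84-fold and 1.75-fold as deposited. Both changes were positive after quantile normalization (0.13 and 0.57) and after cyclic loess (0.42 and 0.65). Dhx35 was called higher under both of these scalings, and Ddx23 only after cyclic loess.

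Among 12 helicases that help to assemble ribosomes, roles known for several of them from yeast, 11 fell as deposited and Ddx50 did not pass the test. The median log2 change was -1.63. Ddx10 read 7.82, 7.84, 7.98 and 8.21 in cells and 4.24, 4.31, 4.10 and 4.66 in exosomes. Its exosome signals were all below the background limit, so it was at least 2.77-fold lower (limma adjusted p = 8.83e-08), with a measured difference of -3.64 ± 0.14 (SE) that has no order among values at background. Ddx52 read 9.21, 9.03, 9.28 and 9.09 in cells and 6.15, 6.26, 6.39 and 6.49 in exosomes. All 4 exosome values lay close to the background limit, with 1 above it and a mean of 6.32 below it, and Ddx52 fell 7.12-fold as measured (-2.83 ± 0.10). Ddx24 read 9.12, 8.96, 9.00 and 8.95 in cells and 6.52, 6.56, 6.48 and 6.62 in exosomes, a fall of 5.52-fold as measured (-2.46 ± 0.07) to values near the limit, 3 of them above it.

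Ddx21 and Ddx50 are nucleolar relatives whose genes neighbour each other in RefSeq. Ddx21, which couples the making and processing of ribosomal RNA, read 9.44, 9.41, 9.40 and 9.57 in cells and 7.73, 7.73, 7.85 and 7.84 in exosomes. The groups were apart with hardly any spread, and Ddx21 fell 3.18-fold (log2 change -1.67 ± 0.07 SE, limma adjusted p = 1.49e-07). Ddx50 read 7.23, 7.09, 6.89 and 6.32 in cells and 7.07, 6.86, 6.45 and 7.06 in exosomes. Here the groups overlapped, 3 of 4 exosome values were above background, and cell replicate 4 was the lowest value of all 8 arrays. The change of Ddx50 was -0.023 ± 0.22 (adjusted p = 0.938), which does not show equal levels, since its SE was among the widest in the family.

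The other ribosome assembly helicases fell by 1.81-fold to 3.43-fold, apart from Ddx55, given as a bound. Dhx33, which promotes ribosomal RNA synthesis, fell 3.43-fold, Ddx27 3.41-fold, Ddx56 3.02-fold and Ddx54 2.97-fold, while Ddx55 was not above background in exosomes and was at least 2.17-fold lower. Ddx51 and Dhx37 fell 1.88-fold and 1.81-fold as deposited, and both were called higher after quantile normalization (log2 changes 0.33 and 0.51) and after cyclic loess (0.36 and 0.62). Ddx54 and Ddx56 kept a negative change after cyclic loess but were no longer called (-0.11 with adjusted p = 0.16 and -0.13 with adjusted p = 0.214).

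**Figure D2:**
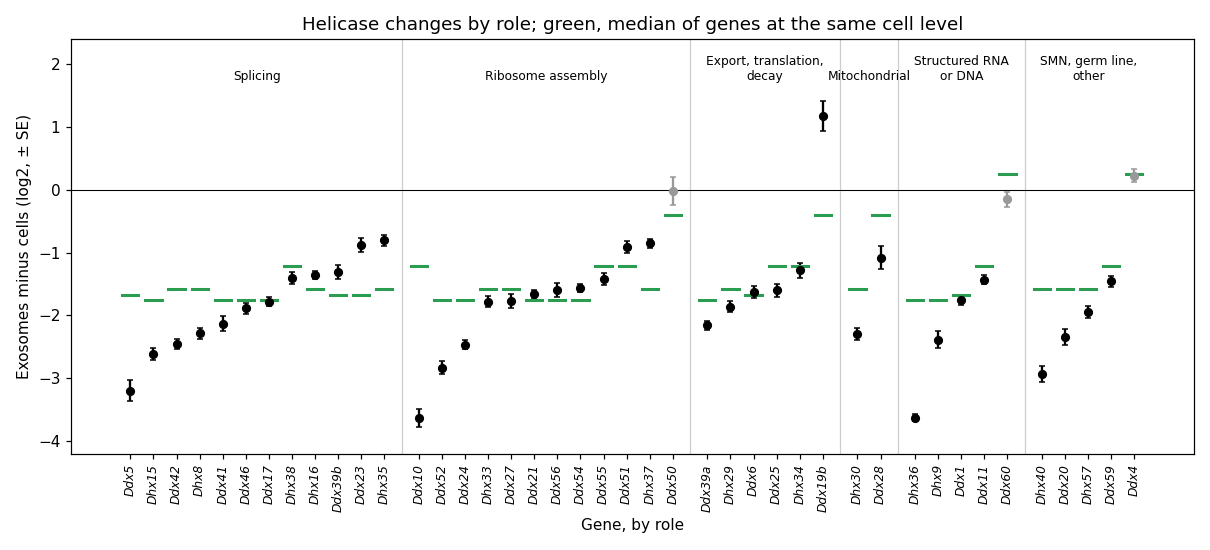
Exosome minus cell difference of each helicase gene (y axis, log2, points with SE from limma; grey, not called), grouped by role, with green bars at the median change of all genes whose cell signal lay in the same log2 unit. In the deposited values all 12 splicing helicases lie below 0, 11 of 12 ribosome assembly helicases are called lower and Ddx19b alone is called higher; under other scalings Ddx23, Dhx16, Dhx35, Ddx51 and Dhx37 turn positive.

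Helicases of mRNA export, translation and decay included the only member that rose. Ddx6, which holds mRNAs in a repressed state and activates decapping, read 11.60, 11.40, 11.56 and 11.58 in cells and 9.82, 9.73, 10.01 and 10.04 in exosomes. Both groups were far above background and apart, and Ddx6 fell 3.10-fold (log2 change -1.63 ± 0.10 SE, limma adjusted p = 7.96e-07). Ddx39a, the close relative of Ddx39b, fell 4.47-fold. Dhx29, which helps ribosomes to scan structured leaders, fell 3.64-fold and Dhx34, a factor of nonsense-mediated decay, 2.43-fold as measured, with 2 and 1 of 4 exosome arrays above background. The change of Dhx34 was -0.16 after quantile normalization (adjusted p = 0.32). Ddx25, known from testis, was above background on all cell arrays and no exosome array and was at least 2.21-fold lower.

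Ddx19b, which strips export proteins from mRNA as it leaves the nuclear pore, was measured by 2 transcript clusters that disagreed. The cluster with the higher mean over all arrays, which stood for the gene, read 6.88, 7.15, 6.75 and 7.00 in cells and 8.29, 7.35, 8.45 and 8.38 in exosomes. The lowest exosome value lay above the highest cell value, but that of replicate 2 exceeded the highest cell value only narrowly. This signal rose 2.26-fold (log2 change 1.17 ± 0.24 SE, limma adjusted p = 0.00282), and by 1.43 on the log2 scale without exosome replicate 2. Its change stayed positive and called under all 5 scalings, from 0.58 with background gene centring to 2.56 with cyclic loess.

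The second cluster of Ddx19b read 7.82, 7.51, 7.65 and 7.38 in cells and 6.89, 6.55, 6.72 and 6.79 in exosomes. Here the order of the groups was the opposite, with a fall of 1.81-fold (log2 change -0.85 ± 0.12 SE, limma adjusted p = 0.000232), and this direction turned after quantile normalization (0.37, adjusted p = 0.0212) and cyclic loess (0.39, adjusted p = 0.0159). Clusters of 1 gene called in opposite directions occurred for 10 of 135 genes with more than 1 cluster. In RefSeq, Ddx19b lies beside Ddx19a, a nearly identical gene with no signal of its own here, and overlaps Aars, and whether either contributes to these signals was not tested. The rise of Ddx19b is therefore uncertain.

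Both helicases of mitochondrial ribosome assembly fell. Dhx30 was not above background on any exosome array and was at least 3.16-fold lower (limma adjusted p = 1.2e-07). Ddx28 lay just above the background limit in cells, at 6.39 ± 0.19 (SD, n = 4), and read 5.31 ± 0.36 in exosomes (log2 change -1.08 ± 0.18 SE, adjusted p = 0.000899), with no fold because its exosome signal was within background.

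Of 5 helicases that act on folded RNA or on DNA, 4 fell and Ddx60 did not pass the test. Dhx36, which unwinds the 4-stranded structures called G-quadruplexes, read 9.15, 9.14, 9.12 and 9.18 in cells and 5.51, 5.51, 5.59 and 5.49 in exosomes. It had the smallest SE of all members, 0.06, and every exosome value was below background, so that it was at least 6.31-fold lower (measured log2 difference -3.63, limma adjusted p = 2.65e-08), the largest bound in the family. Dhx9, or RNA helicase A, which opens double-stranded RNA and RNA-DNA hybrids, read 9.75, 9.75, 9.67 and 9.85 in cells and 7.37, 6.97, 7.54 and 7.60 in exosomes. Exosome replicate 2 was the lowest, the groups were far apart, and Dhx9 fell 5.23-fold (-2.39 ± 0.14).

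Ddx1, a subunit of the complex that ligates tRNA after its intron is cut out, read 11.56, 11.49, 11.44 and 11.58 in cells and 9.69, 9.64, 9.82 and 9.87 in exosomes. It was far above background in both groups, which were apart, and fell 3.39-fold (log2 change -1.76 ± 0.08 SE, limma adjusted p = 1.73e-07). Ddx11, a DNA helicase that helps sister chromatids to stay together, was at least 2.12-fold lower. Ddx60 read 3.31, 3.45, 3.52 and 3.65 in cells and 3.54, 3.34, 3.05 and 3.37 in exosomes. Its groups overlapped within background (-0.16 ± 0.12, adjusted p = 0.309), and it was called lower only when arrays were centred on background genes (-0.75).

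The last group held a helicase of small nuclear RNP assembly, a germ cell helicase and 3 helicases of less known role. Ddx20, also called Gemin3, works in the SMN complex that builds small nuclear RNPs. It read 8.23, 8.00, 8.12 and 8.22 in cells and 5.86, 5.44, 6.00 and 5.90 in exosomes, all 4 below the exosome background limit, and was at least 3.14-fold lower (limma adjusted p = 5.48e-07). Dhx40 read 8.36, 8.21, 8.25 and 8.40 in cells and 5.41, 5.07, 5.32 and 5.69 in exosomes, again with no exosome value above background, and was at least 3.52-fold lower (adjusted p = 1.7e-07). Dhx57, above background on 2 of 4 exosome arrays, fell 3.86-fold as measured, and Ddx59 was at least 1.83-fold lower.

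Ddx4 read 3.71, 3.74, 3.84 and 4.09 in cells and 4.14, 3.94, 4.13 and 4.07 in exosomes. These overlapping values lay within background in both groups (log2 change 0.22 ± 0.10 SE, limma adjusted p = 0.0922). Without cell replicate 4 the change was 0.31 and was called higher (adjusted p = 0.0189). After centring on background genes it was -0.37 and was called lower (adjusted p = 0.00504). The background genes themselves were brighter on exosome arrays, where their median was 4.21 ± 0.08, than on cell arrays, where it was 3.62 ± 0.05 (SD, n = 4 each).

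By name, 24 of 28 Ddx members fell (median log2 change -1.62) and 14 of 14 Dhx members fell (median -1.91); the difference between the families was not tested.

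In 3 of 4 pairs of related helicases the deposited values changed by unequal amounts. The difference between 2 genes on the same array does not depend on centring, and its shift from cells to exosomes was compared for 4 pairs, with an exact permutation test over the 8 arrays (two-sided, smallest p 0.0286, Benjamini-Hochberg adjusted over 4 pairs). Ddx5 fell by 1.42 ± 0.20 (SE) more than Ddx17 on the log2 scale. The change of Ddx21 minus that of Ddx50 was -1.65 ± 0.29. Ddx50 was much dimmer in cells (6.88 against 9.45) and lay close to the exosome background limit. All genes in the same log2 unit of cell signal had a median change of -1.75 for Ddx21 and -0.40 for Ddx50. Whether signal level accounts for the difference of this pair was not tested. Ddx39a fell by 0.85 ± 0.14 more than Ddx39b. In each of these 3 pairs the 4 exosome values of the difference lay on 1 side of the 4 cell values (exact permutation p = 0.0286, adjusted p = 0.0286, n = 4 arrays per group). After quantile normalization the difference for Ddx39a and Ddx39b was -0.34 (exact p = 0.0857), while it was -1.46 for Ddx5 and Ddx17 and -1.37 for Ddx21 and Ddx50 (exact p = 0.0286 each). For the remaining pair, Dhx9 and Dhx36, the measured difference of 1.24 rests on exosome signals of Dhx36 within background. With Dhx36 raised to the background limit of each array, a setting chosen after seeing the data, the difference was 0.27 and did not pass the test (exact permutation p = 0.143, n = 4 arrays per group). The adjusted p of the other 3 pairs counted Dhx9 and Dhx36 at their measured exact p of 0.0286. It would be larger with Dhx36 raised. All 4 pairs were tested after values were seen. The levels of different genes are not compared here, since their probes differ.

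**Figure D3:**
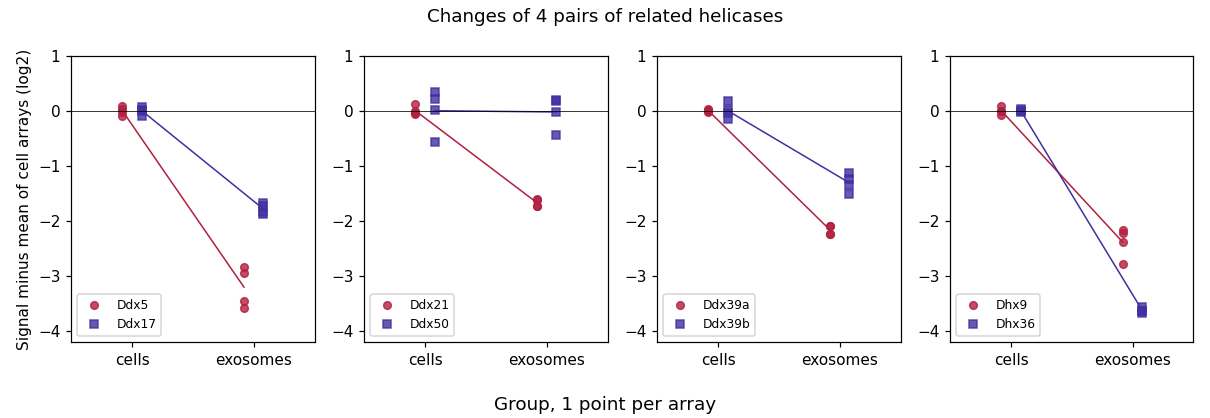
Deposited signal of 4 pairs of related helicases on each array, with the mean of the gene's cell arrays subtracted (y axis, log2; 1 point per array, lines join group means). Ddx5 and Ddx39a lie further below 0 in exosomes than their partners Ddx17 and Ddx39b, the exosome points of Dhx36 lie within background and show no exact difference from Dhx9, and Ddx50 stays around 0 while Ddx21 fell by 1.67.

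The change varied with the signal in cells, so each member was set beside all genes whose cell signal lay in the same log2 unit. Their median change was -0.40 at 6 to 7, -1.21 at 7 to 8, -1.58 at 8 to 9, -1.75 at 9 to 10 and -1.68 at 10 to 11 and at 11 to 12. Of the 42 members, 30 lay below the median of their unit and 12 above it, and the median distance was -0.22, as measured. The count was repeated with members within background on all exosome arrays at their bound. This setting was chosen after seeing the data and was not applied to the other genes. Then 25 lay below and 17 above, and the median distance was -0.074. A bound is the smallest fall, so a member above only through its bound is not shown to lie above. Those members were Ddx11, Ddx25, Ddx28, Ddx55 and Ddx59, all below the median of their unit as measured. Ddx28 entered at 0.097, because its cell mean lay below the exosome limit. The bright members Ddx1, Ddx6, Ddx17 and Ddx21 lay within 0.10 of the median of their unit, at -0.08, 0.04, -0.03 and 0.08. Among members above background on all exosome arrays, those furthest below were Ddx5 at -1.52, Dhx15 at -0.86 and Dhx9 at -0.63. Of those within background in exosomes, the bounds of Dhx36, Dhx8 and Ddx10 lay furthest below their unit, at -0.90, -0.55 and -0.26. These members lay at least that far below in the deposited values. The members furthest above were Ddx19b at 1.57, Ddx23 at 0.80, Dhx35 at 0.78 and Dhx37 at 0.73. Over the 42 members the measured change correlated with the cell signal at r = -0.50 and rho = -0.45, and over the 9164 genes above background in cells at r = -0.33 and rho = -0.37. The sets are unlike, since the members include Ddx4 and Ddx60, which were within background, and the larger set holds no such genes. These correlations describe genes on shared arrays, and the change includes the cell signal itself. With gene span in RefSeq the members' change had r = -0.01 and rho = -0.05.

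**Figure D4:**
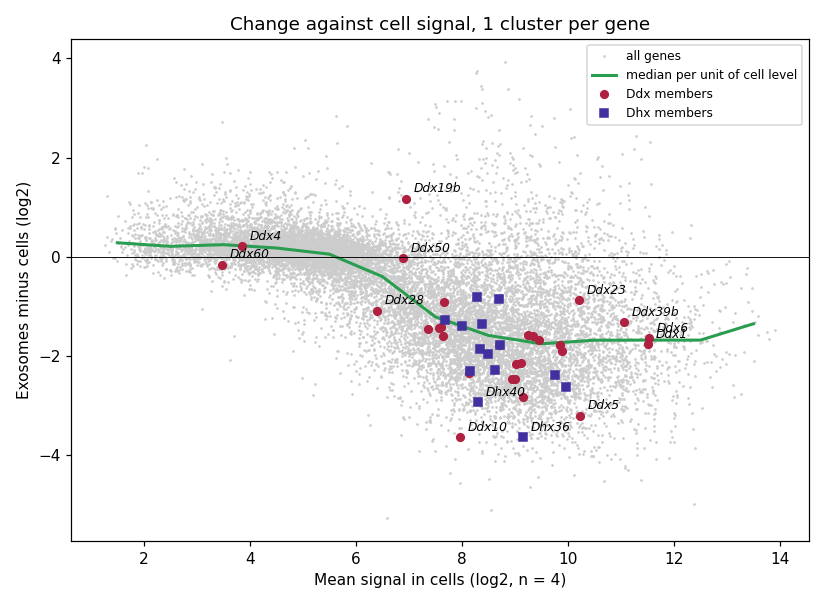
Exosome minus cell difference (y axis, log2) against mean signal in cells (x axis, log2, n = 4) for all 14860 genes (grey), Ddx members (circles) and Dhx members (squares), with the median per log2 unit in green. Most helicases lie around or below the green line, with Ddx5 far below it and Ddx19b above it; the points of Ddx10, Dhx36 and other members within background in exosomes are measured values whose falls are known only as bounds.

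**Figure D5:**
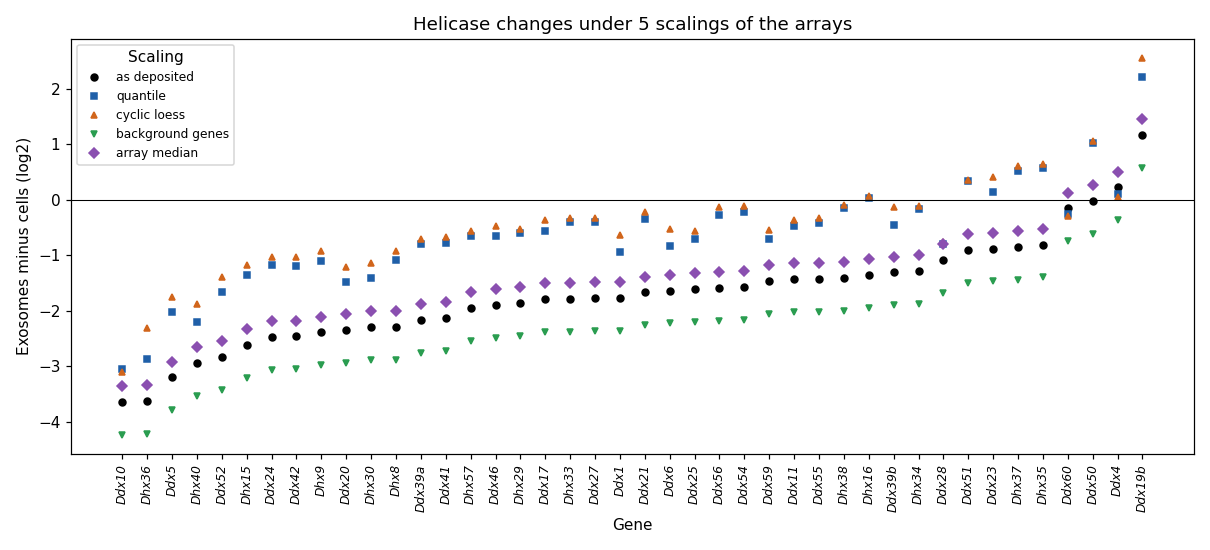
Exosome minus cell difference (y axis, log2) of each helicase gene as deposited and under 4 other scalings of the arrays. 28 members are called lower and Ddx19b is called higher under all 5, while Ddx23, Ddx51, Dhx16, Dhx35, Dhx37 and Ddx50 lie above 0 after quantile normalization and cyclic loess, and Ddx4 and Ddx60 change sign between centrings.

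The genes of proteins that work with these helicases mostly fell in the deposited values, but for many of them the direction rested on the scaling. Of 78 measured partner genes, 67 fell, 3 rose and 8 did not pass the test, with a median log2 change of -1.45. Of the genes above background in cells 80.0% fell, with a median of -1.30, so the partners' share is near that of such genes, and of all genes 52.1% fell. After quantile normalization 41 were called lower and 23 higher, and after cyclic loess 35 and 23. The directions of single partner genes below hold under all 5 scalings unless an exception is given. Their folds and bounds are for the deposited values.

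Helicases and related ATPases outside the Ddx and Dhx names fell for 12 of 15 members and rose for 2 (median log2 change -1.51), and after cyclic loess 7 were called lower and 3 higher. Eif4a3, the DEAD box core of the exon junction complex, passed the background limit on no exosome array and was at least 1.62-fold lower. Ascc3, which unwinds DNA and splits collided ribosomes, was at least 4.80-fold lower, and Aqr, a splicing helicase, fell 10.8-fold (log2 change -3.43 ± 0.09 SE, limma adjusted p = 2.88e-08). Dicer1, the ribonuclease that cuts microRNA precursors and carries a helicase domain, rose 1.54-fold (0.62 ± 0.08, adjusted p = 0.000127), but not when arrays were centred on background genes (0.032, adjusted p = 0.748). Mov10l1, a germ cell helicase, was within background in both groups (0.26 ± 0.07, adjusted p = 0.0133), and its change was -0.33 after centring on background genes.

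G-patch proteins, several of which switch on DEAH helicases, fell for 16 of 17 members (median log2 change -1.62), and after cyclic loess 9 were called lower and 4 higher. Rbm5 fell 7.54-fold, Pinx1 fell 5.64-fold, and Rbm10 was at least 3.51-fold lower. Partners of Ddx39b in export and in the exon junction complex fell for 13 of 16 members (median -1.25), and after cyclic loess 7 were called lower and 5 higher. Nxf1, the mRNA export receptor, fell 9.61-fold as measured, with 3 of 4 exosome arrays above background, Thoc5 fell 6.14-fold and Rnps1 6.10-fold, while Thoc3, a subunit of the THO complex, had a change of 0.12 ± 0.07 (SE, limma adjusted p = 0.185) that was -0.48 after centring on background genes and 1.11 after cyclic loess.

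Partners of Ddx20 in the SMN complex fell for 7 of 8 members (median log2 change -1.25), and after cyclic loess 4 were called lower and 1 higher. Smn1 itself, above background on 1 of 4 exosome arrays, fell 6.16-fold as measured, Gemin5 fell 4.53-fold, Gemin2 was at least 1.14-fold lower, and Strap, which binds the complex, had a change of -0.14 ± 0.09 (SE, limma adjusted p = 0.223) that was 0.78 after cyclic loess. Decapping and repression partners of Ddx6 fell for 9 of 10 members (median -1.40), and after cyclic loess 4 were called lower and 4 higher. Xrn1, the exonuclease that degrades decapped mRNA, fell 4.10-fold as measured, with 1 of 4 exosome arrays above background. Eif4enif1, a translation repressor, fell 3.66-fold and Edc4, a decapping scaffold, 3.38-fold, while Dcp1a had a change of -0.14 ± 0.13 (adjusted p = 0.397) that was 1.33 after cyclic loess.

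Export partners of Ddx19b fell for 4 of 5 members (median log2 change -0.90), and after cyclic loess 1 was called lower and 3 higher. Gle1, the nuclear pore protein that switches on this helicase, rose 1.31-fold (0.39 ± 0.07 SE, limma adjusted p = 0.00116), and its change was -0.20 after centring on background genes (adjusted p = 0.0791). The nucleoporins Nup88, Nup62 and Nup214 fell 3.15-fold, 2.65-fold and 1.87-fold as deposited, but after cyclic loess the change of Nup62 was no longer called (adjusted p = 0.944) and that of Nup214 was 0.37 (adjusted p = 0.00218). Partners of Dhx9, Ddx5 and Ddx17 in small RNA and innate pathways fell for 6 of 7 members (median -1.50), and after cyclic loess 3 were called lower and 3 higher. Ilf2, a binder of double-stranded RNA complexes, fell 8.38-fold, Adar, an RNA editing enzyme, 3.01-fold, and Prkra, a Dicer cofactor, was at least 1.82-fold lower, while Tarbp2, another Dicer cofactor, had a change of -0.10 ± 0.12 (adjusted p = 0.519) that was 1.26 after cyclic loess.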

How the data were processed

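Total RNA of 4 cell and 4 exosome samples was measured on Affymetrix mouse exon arrays. Values are log2 signals as deposited; the submitters' processing notes name Affymetrix Expression Console, RMA and genome build mm8, and the authors took a gene's mean over its core probesets, per the labels' series text. The sources used here give no versions. Of 23332 transcript clusters, 14996 had 1 gene symbol in the platform table, 1019 had several and 7317 were unnamed here. Where a gene had several clusters, the one with the highest mean of the 8 arrays was used. All 42 members matched RefSeq (GRCm38.p6) by gene identifier with the same symbol, and that table was used for names, neighbours and gene spans only. In it, 8 members overlap another protein coding gene, and whether shared stretches carry probes was not tested.

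Groups were compared with limma 3.58.1 in R 4.3.3 (lmFit, eBayes, Benjamini-Hochberg over all transcript clusters, no filter). Fold changes come from differences of group means on the log2 scale. For a member within background on all exosome arrays, the fold is a bound against the mean exosome limit, in the deposited values only. Background genes were 842 clusters of Olfr, Vmn1r, Vmn2r, Taar, Tas1r and Tas2r genes. The fit was tested on simulated data. No 2 arrays were identical, and r between arrays was 0.987 to 0.991 in cells, 0.975 to 0.978 in exosomes and 0.873 to 0.895 between groups. No block was used, since the replicate numbers are not said to mark a shared culture. Samples of the same number did not deviate together (r from -0.05 to 0.00). Members and lists were chosen with earlier results of these data known, and the pairs were tested after values were seen. Values per array are given for the 8 largest called falls, called rises, 13 fixed members of which 12 were measured, and uncalled members; up to 3 partners in the direction of a list and up to 2 against it are named, with uncalled examples chosen after their values were seen. Alternatives were quantile normalization, cyclic loess, 2 centrings, a filter on dim signals, another prior, array weights, a replicate block, a stricter threshold, other background limits, another cluster per gene and leaving out each array. Sequence features were not analysed. Figures used matplotlib 3.10.9.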

Additional observations from a re-analysis of the deposited data

Results flagged for a closer look

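In exosomes, Ddx19b read 7.35 on replicate 2, far below the other 3 exosome arrays, which lay between 8.29 and 8.45. Its gap to the nearest other array was 0.853 of the whole range, above Dixon's 95% critical value for 4 samples. This was 1 flag among 84 groups tested, where chance flags about 1 in 20 groups.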

How the results depend on the processing

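Signal over background limits what exosome arrays can show, so falls to background are bounds. The count of 38 members called lower stayed within 1.5 times under every alternative, while other counts moved with the scaling, the filter, the threshold, the cluster chosen or the background limit. After quantile normalization there were 5 members called higher, 2 of them and 12 of the lower ones at least 2-fold, a median of -0.63, 6627 and 6582 clusters called higher and lower, and 23 and 41 partner genes. After cyclic loess these were 6, 2, 10, -0.49, 6799 and 6490, and 23 and 35. Centring on background genes gave 0 members at least 2-fold higher, a median of -2.31, 1062 and 16646 clusters and 0 partner genes higher. Centring on array medians gave 2 members higher, a median of -1.43, 7938 clusters higher (8760 lower) and 5 partner genes higher. The filter on dim signals left 1479 clusters higher (it tests fewer), and an adjusted p below 0.01 left 2346. With the lowest-mean cluster for each gene, 0 members were higher and 0 at least 2-fold higher, since Ddx19b became -0.85. Members above background in exosomes were 11 at the 99th percentile, 11 at the median plus 3 median absolute deviations, 31 at the 90th percentile and 24 when 3 of 4 arrays sufficed.

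Changes that turned sign after quantile normalization and cyclic loess were those of Ddx23 (0.13 and 0.42), Ddx50 (1.02 and 1.05), Ddx51 (0.33 and 0.36), Dhx16 (0.025 and 0.070), Dhx35 (0.57 and 0.65) and Dhx37 (0.51 and 0.62). Centring on background genes turned Ddx4 (-0.37), and centring on array medians turned Ddx50 (0.26) and Ddx60 (0.13). The cause was not tested. Leaving out each array gave 1 to 2 members higher, the second being Ddx4 without cell replicate 4, and moved Ddx50 between -0.21 and 0.11 and the pair differences between -1.52 and -1.26 for Ddx5 and Ddx17, -1.80 and -1.42 for Ddx21 and Ddx50, -0.94 and -0.77 for Ddx39a and Ddx39b, and 1.15 and 1.37 for Dhx9 and Dhx36, with Dhx36 within background in exosomes. With the replicate number as a block, 38 members were lower and 1 higher, 3416 clusters were higher and 9811 lower, and no call of a member changed.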
